A study of Mus musculus with 8 samples.

Results

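Tumour necrosis factor (Tnf), both of its receptors, 3 further ligands of its family, the receptor gene Cd40 and 3 genes induced by or acting in the same signalling were followed in peritoneal macrophages with and without a Men1 knockout. The 10 genes were taken by gene name from the deposited count table (Tnf, Tnfsf9, Tnfsf12, Tnfsf13b, Tnfrsf1a, Tnfrsf1b, Cd40, Traf1, Birc3 and Tnfaip2), and all 10 were found among its 54532 genes and passed the expression filter. Men1 encodes menin, a scaffold of histone methyltransferase complexes. The groups were 3 M_KO libraries (Men1 knockout; M_KO_5944, M_KO_5645 and M_KO_5642), 3 M_WT libraries (wild type; M_WT_5643, M_WT_6258 and M_WT_6255), 1 F_KO library and 1 F_WT library. All 8 came from mice given thioglycollate broth, an irritant that recruits leukocytes to the peritoneal cavity. The sources used here do not give the strain, age, knockout allele, any Cre driver or the time after the broth, and the letters M and F are kept as the titles write them. Animal numbers in the titles differ between all libraries. Litters and days are not stated, so p-values measure the spread between these libraries only.

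TNF is a cytokine that macrophages make in quantity when stimulated. It is made as a membrane protein, is shed by a protease, and binds TNFR1, found on most cells, and TNFR2, found mainly on leukocytes and endothelium. TNFR1 carries a death domain and signals through TRADD and RIPK1, whereas TNFR2 and CD40 bind TRAF adaptors directly. Both routes lead to NF-kB, which induces Tnf itself and several of its signalling proteins.

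Total counts ran from 18206427 to 22853583 per library. The targeted gene, Men1, was at 8.15, 6.45 and 8.42 CPM (read counts scaled to library size by the TMM method over all 8 libraries) in M_KO, against 25.7, 17.1 and 21.4 CPM in M_WT, and at 11.7 CPM in F_KO against 18.1 CPM in F_WT. Macrophage markers (Adgre1, Csf1r, Lyz2 and 5 others, 8 of 8 tested) summed to 17909 to 20555 CPM in M_KO, 20798 to 32119 CPM in M_WT, 24406 CPM in F_KO and 24486 CPM in F_WT. Lyz2 made up most of this sum, and of the 8 markers 5 were lower and 3 higher in M_KO. Csf1r was 1 of those higher, at 1823 to 2097 CPM in M_KO and 1235 to 1554 CPM in M_WT (edgeR adjusted p = 0.460). B cell markers were present in every library (12 of 12 tested; 226.3 to 687.3 CPM in M_KO, 152.3 to 462.0 CPM in M_WT, 747.7 CPM in F_KO, 462.9 CPM in F_WT). Dendritic cell markers, mostly Itgax, summed to 49.7 to 66.3 CPM in M_KO and 74.9 to 101.6 CPM in M_WT, with 65.3 CPM in F_KO and 78.3 CPM in F_WT. Of these 10 markers 7 were tested, 6 lower and 1 higher in M_KO, and Cd209a exceeded 1 CPM in M_WT_6258 and M_WT_6255 only. Mast cell and basophil markers, mostly Hdc, summed to 102.8 to 614.5 CPM in M_KO, 306.0 to 762.3 CPM in M_WT, 1129 CPM in F_KO and 412.4 CPM in F_WT, with Mcpt8 at 0 in all 8 libraries. Hdc and Gata2 were highest in F_KO, while Cpa3, Mcpt4, Tpsb2 and Cma1 were highest in M_KO_5944, at 2.89 to 9.11 CPM. Of the T and NK cell markers 10 of 12, and of the neutrophil markers 7 of 10, stayed under 1 CPM in every library. Interferon-stimulated genes (15 of 15 tested) summed to 1345, 188.8 and 213.1 CPM in M_KO and to 2536, 1731 and 1044 CPM in M_WT, with 387.7 CPM in F_KO and 390.7 CPM in F_WT. All 15 had a lower fitted level in M_KO (median log2 fold change -1.71), and neither edgeR nor DESeq2 called any of them. In the F pair their median difference in log2 CPM was -0.10. In bulk RNA, fewer cells of a type and less RNA per cell cannot be told apart.

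Tnf, its second receptor Tnfrsf1b and the adaptor gene Traf1 were below every M_WT library in each M_KO library, at 53.8%, 51.9% and 56.2% of the M_WT mean. The first receptor, Tnfrsf1a, and the inhibitor of apoptosis gene Birc3 were at 107% and 104% of it. None of the 10 genes had an edgeR adjusted p under 0.05, while DESeq2 called 1, Tnf. The targeted gene Men1, with a log2 fold change of -1.49, was not called by edgeR either (adjusted p = 0.272). DESeq2 called it (adjusted p = 4.49e-06), so the absence of an edgeR call does not show that a gene is unchanged. Libraries of the M groups did not overlap for 3 of the 10 genes, all lower in M_KO, against 6.95% of all 13646 genes tested. The 10 genes and the lists below were chosen with earlier results of these data known. Shares set beside those of all genes, here and below, are therefore descriptions and do not test for an excess. Of all genes, edgeR called 0.0220%, while DESeq2 called 1.19% (0.593% lower and 0.600% higher in M_KO). At an unadjusted edgeR p under 0.05, 3 of the 10 genes were lower (Tnf, Traf1 and Tnfrsf1b) and 1 was higher (Tnfsf12), against 4.42% and 5.47% of all genes, or 9.89% in either direction. The authors' deposited table held 0.553% of its genes under 0.05, and 0 of the 10. With all 8 libraries and the letter as a covariate, edgeR called 0.00727% of genes and 0 of the 10.

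**Figure D1:**
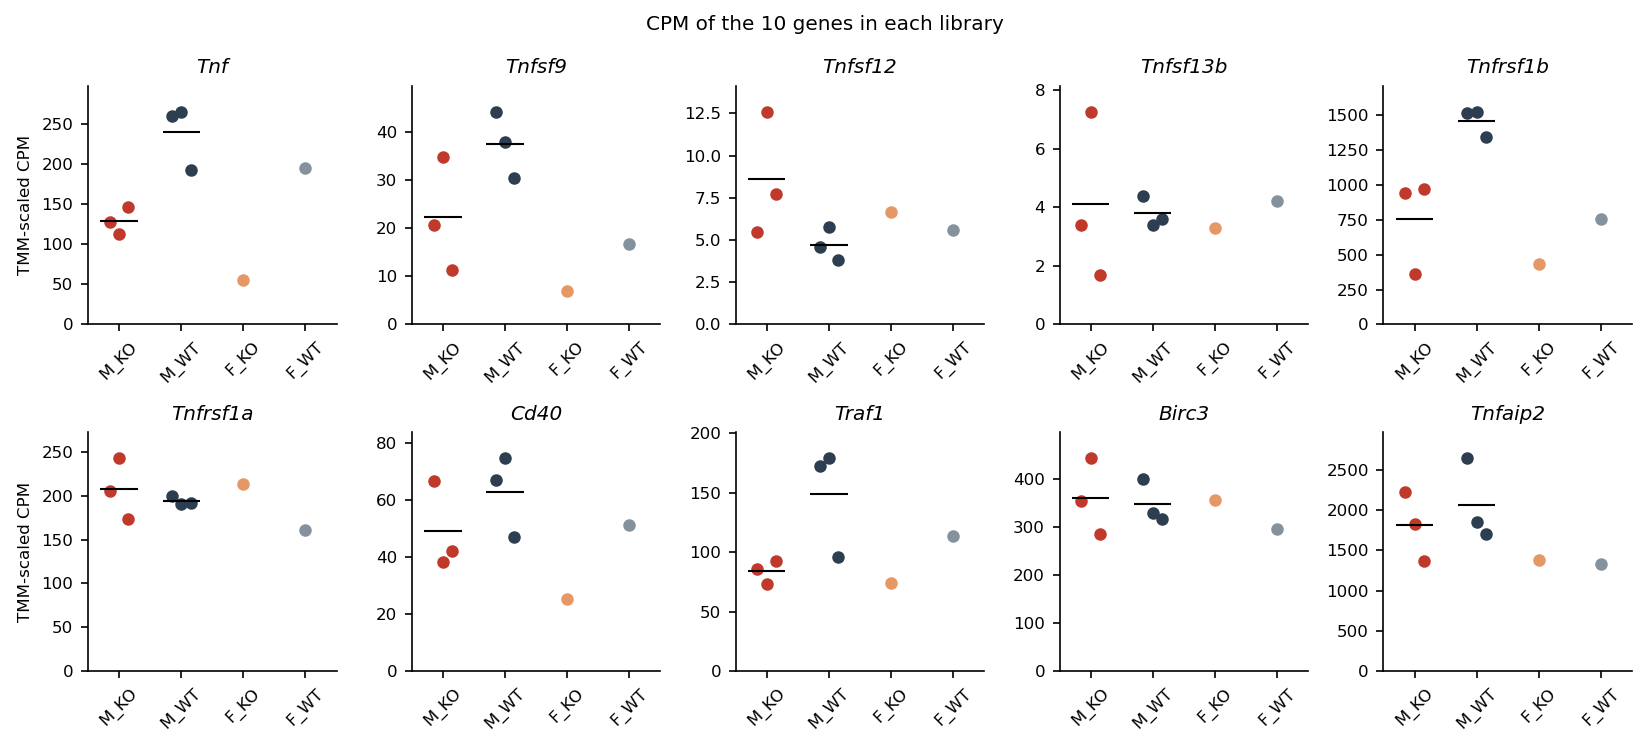
Each panel plots 1 gene in TMM-scaled CPM on a linear axis from 0, with 1 point per library by group and a line at the mean of the M groups (n = 3 each). Tnf, Tnfrsf1b and Traf1 are lower in all 3 M_KO points than in all 3 M_WT points, while the other 7 genes overlap.

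Tnf (ENSMUSG00000024401, chr17:35199381-35202007, GRCm38, minus strand) was at 127.4, 112.3 and 146.5 CPM in M_KO, against 259.6, 265.4 and 193.0 CPM in M_WT. It was at 55.8 CPM in F_KO, against 195.0 CPM in F_WT. All 4 KO libraries thus lay below all 4 WT libraries, a separation seen in this direction for 2.42% of all genes tested. The M means were 128.7 ± 17.1 and 239.3 ± 40.2 CPM in M_KO and M_WT (SD, n = 3 each), a log2 fold change of -0.90 (SE 0.17). The edgeR adjusted p was 0.322, with an unadjusted p that ranked Tnf 43 among the 13646 genes. By DESeq2 the log2 fold change was -0.91 (SE 0.22, adjusted p = 0.00649), and in the authors' deposited table it was -0.89 with an adjusted p of 0.0779. Permuting the M libraries in an exact, two-sided way gave p = 0.1, and 3 against 3 cannot give less. The DESeq2 call was lost without M_WT_6258 (adjusted p = 0.189) or M_KO_5645 (adjusted p = 0.0660), and the log2 fold change by edgeR lay between -1.04 and -0.81 whichever library was left out.

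Promoter sequence is shown for the 3 genes whose M libraries did not overlap and for Birc3, an NF-kB target whose libraries overlapped. The stretches are the 250 bases before the RefSeq start site (GRCm38.p6), 5′ to 3′ on the gene's strand, and capitals mark matches to an NF-kB consensus (GGG, any 5 bases, then CC) on either strand. Tnf is from chr17:35202008-35202257 (minus strand), Tnfrsf1b from chr4:145246871-145247120 (minus), Traf1 from chr2:34961773-34962022 (minus) and Birc3 from chr9:7873171-7873420 (minus).
Tnf: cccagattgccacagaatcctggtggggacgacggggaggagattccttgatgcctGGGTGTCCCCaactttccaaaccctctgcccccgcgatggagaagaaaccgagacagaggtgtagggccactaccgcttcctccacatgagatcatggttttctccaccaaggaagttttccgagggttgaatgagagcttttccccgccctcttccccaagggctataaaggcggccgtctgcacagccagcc
Tnfrsf1b: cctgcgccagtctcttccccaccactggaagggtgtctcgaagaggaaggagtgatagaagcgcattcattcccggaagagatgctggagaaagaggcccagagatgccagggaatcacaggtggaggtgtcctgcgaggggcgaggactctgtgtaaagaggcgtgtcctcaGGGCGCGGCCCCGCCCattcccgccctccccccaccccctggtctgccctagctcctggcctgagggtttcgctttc
Traf1: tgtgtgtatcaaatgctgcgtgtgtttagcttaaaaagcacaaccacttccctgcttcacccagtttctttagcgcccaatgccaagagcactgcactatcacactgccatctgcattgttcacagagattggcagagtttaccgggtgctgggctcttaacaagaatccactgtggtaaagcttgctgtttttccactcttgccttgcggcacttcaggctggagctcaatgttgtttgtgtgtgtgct
Birc3: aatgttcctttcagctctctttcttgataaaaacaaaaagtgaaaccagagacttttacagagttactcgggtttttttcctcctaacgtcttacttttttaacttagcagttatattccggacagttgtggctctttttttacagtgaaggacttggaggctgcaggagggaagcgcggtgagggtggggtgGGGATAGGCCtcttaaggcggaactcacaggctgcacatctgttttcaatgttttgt

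The match in Tnf covers the bases from -194 to -185 and reads on both strands, and a second one lies 30 to 39 bases past the start site. Tnfrsf1b has 3 overlapping matches between -77 and -62, Birc3 has 1 from -57 to -48, and Traf1 has none in this window. Windows of 300 bases (250 before and 50 after the start site) were at hand for 7 of the 10 genes, 5 of which held a match, as did 50.8% of all 32851 windows. Of the genes with a window but no sequence shown, Tnfaip2 held 5 matches, Tnfrsf1a 1 and Tnfsf13b 0. The M libraries of each of these genes overlapped.

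The other ligands did not separate the M groups. Tnfsf9 (ENSMUSG00000035678, chr17:57105325-57107757) encodes 4-1BB ligand, which costimulates T cells. It was at 20.6, 34.9 and 11.4 CPM in M_KO, against 44.3, 37.9 and 30.5 CPM in M_WT, so that M_KO_5645 alone reached the M_WT range. The log2 fold change was -0.76 (SE 0.39, edgeR adjusted p = 0.557). It was -1.24 without M_KO_5645 and -0.44 without M_KO_5642, so its size rests on single libraries. In the F pair Tnfsf9 was at 7.02 CPM in F_KO and 16.7 CPM in F_WT, both under the lowest M_WT library.

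Tnfsf12 (ENSMUSG00000097328, chr11:69686250-69695849) encodes TWEAK, the ligand of the receptor Fn14. It was at 5.49, 12.6 and 7.74 CPM in M_KO and at 4.58, 5.75 and 3.80 CPM in M_WT, the only 1 of the 10 genes with a higher mean in M_KO and an unadjusted p under 0.05. The log2 fold change of 0.87 (SE 0.35, edgeR adjusted p = 0.489) became 0.49 without M_KO_5645. Its counts are uncertain, since the gene Tnfsfm13 overlaps it on the same strand (364 counts over the 8 libraries, against 1082 for Tnfsf12) and Tnfsf13os on the other strand. Tnfsf13b (ENSMUSG00000031497, chr8:10006467-10039072), which encodes the B cell survival factor BAFF, was the lowest of the 10. It was at 3.39, 7.27 and 1.68 CPM in M_KO, a 4.34-fold range that spans the M_WT values of 3.41 to 4.38 CPM. Its log2 fold change of 0.10 (SE 0.51, edgeR adjusted p = 0.962) changed sign without M_KO_5645 (-0.62).

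Tnfrsf1b (ENSMUSG00000028599, chr4:145213463-145246870), encoding TNFR2, was at 943.5, 362.6 and 967.3 CPM in M_KO, against 1512, 1524 and 1341 CPM in M_WT. M_KO_5645 stood well below the other 2 M_KO libraries, while the M_WT libraries stayed within 1.14-fold of each other. The means were 757.8 ± 342.4 and 1459 ± 102.5 CPM in M_KO and M_WT (SD, n = 3 each), with a log2 fold change of -0.95 (SE 0.36, edgeR adjusted p = 0.470, DESeq2 adjusted p = 0.245). Without M_KO_5645 the log2 fold change was -0.62. F_KO was at 434.8 CPM and F_WT at 755.1 CPM, so the F_WT level lay under 2 of the M_KO libraries and the 4 KO and 4 WT libraries overlapped.

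Tnfrsf1a (ENSMUSG00000030341, chr6:125349362-125362484), encoding TNFR1, was at 205.9, 243.1 and 173.8 CPM in M_KO and at 199.9, 190.5 and 191.2 CPM in M_WT. The log2 fold change was 0.09 (SE 0.15, edgeR adjusted p = 0.859), and the M_WT values lay within the M_KO range. In F it was at 213.0 CPM in F_KO and 161.1 CPM in F_WT.

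The balance of the 2 receptors was compared per length, in the deposited FPKM (fragments scaled to gene length and library size). Tnfrsf1b exceeded Tnfrsf1a 3.11-, 1.01- and 3.78-fold in M_KO, against 5.13-, 5.43- and 4.76-fold in M_WT. The ratio was 1.39 in F_KO and 3.18 in F_WT. The M groups did not overlap (means 2.63 ± 1.44 and 5.11 ± 0.34 in M_KO and M_WT, SD, n = 3 each). The exact, two-sided permutation p was 0.1, and 3 against 3 cannot give less. Of the 4 KO libraries, 3 had a ratio under that of every WT library, and M_KO_5642 exceeded F_WT. Tnfrsf1b alone already separated the M groups while Tnfrsf1a did not, so the ratio is not a separate result. Other FPKM ratios computed were Traf1 over Traf2, Birc3 over Birc2 and Tnf over Tnfrsf1b. By the same permutation test their p was 0.2, 0.7 and 0.9.

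**Figure D2:**
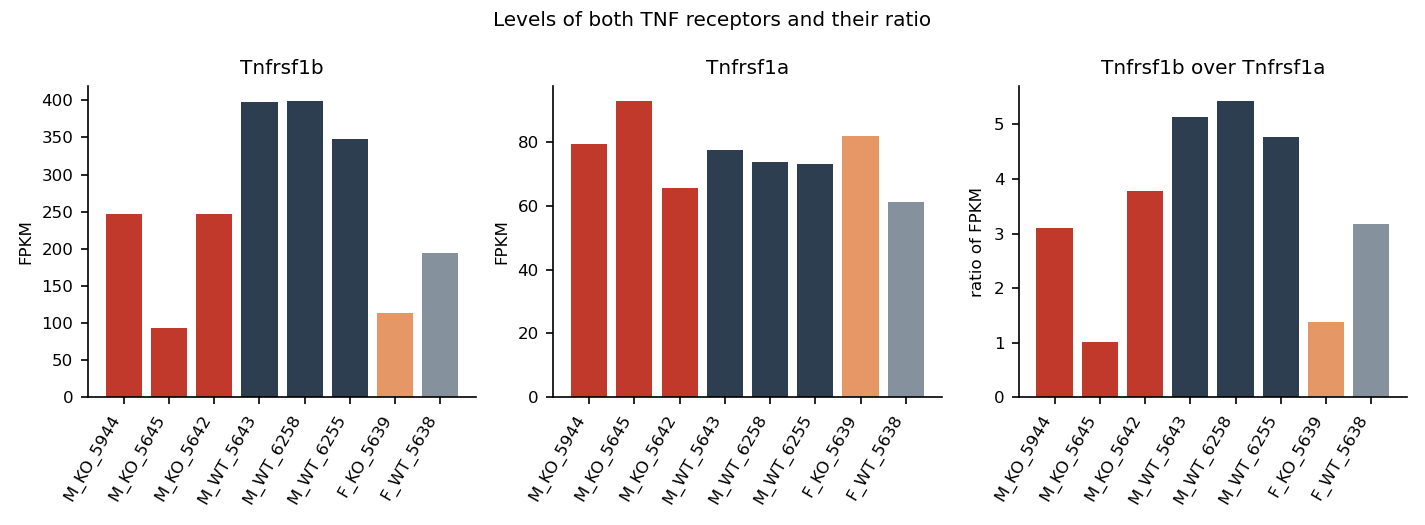
Bars give, for each of the 8 libraries, the deposited FPKM of Tnfrsf1b, the FPKM of Tnfrsf1a and the ratio of both, on linear axes from 0. The ratio is between 1.01 and 3.78 in M_KO, between 4.76 and 5.43 in M_WT, 1.39 in F_KO and 3.18 in F_WT.

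Cd40 (ENSMUSG00000017652, chr2:165055627-165072948) encodes the receptor through which T cells activate macrophages, dendritic cells and B cells. It was at 66.4, 38.1 and 42.2 CPM in M_KO and at 66.8, 74.6 and 46.8 CPM in M_WT. M_KO_5944 lay close to M_WT_5643, and the groups overlapped (log2 fold change -0.37, SE 0.26, edgeR adjusted p = 0.663). Its size rests on single libraries, at -0.65 without M_KO_5944, -0.22 without M_KO_5645 and -0.23 without M_WT_6258. F_KO held 25.1 CPM, the lowest of the 8 libraries, against 51.2 CPM in F_WT. Cd40 is also a gene of B cells and dendritic cells. The B cell marker sum was highest in F_KO (747.7 CPM) and, among M libraries, in M_KO_5645 (687.3 CPM), the libraries where Cd40 was lowest in F and in M. Dendritic cell markers, mostly Itgax, summed to 49.7 to 66.3 CPM in M_KO, under the 74.9 to 101.6 CPM of M_WT. The part of either cell type in the level of Cd40 was not tested.

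Traf1 (ENSMUSG00000026875, chr2:34941750-34961772) encodes an adaptor that binds TNFR2 with TRAF2 and is itself induced by NF-kB. It was at 85.4, 73.3 and 92.9 CPM in M_KO, against 172.7, 179.2 and 95.9 CPM in M_WT. The M_KO values were tightly grouped, and M_WT_6255 lay just above the highest of them. The log2 fold change was -0.84 (SE 0.25, edgeR adjusted p = 0.442, DESeq2 adjusted p = 0.145). With 1 library left out it lay between -1.08 (without M_WT_6255) and -0.70 (without M_WT_6258), and the M_WT libraries spanned a 1.87-fold range. With 73.8 CPM in F_KO and 113.5 CPM in F_WT, Traf1 was, with Tnf, the second of the 10 genes to be lower in all 4 KO than in all 4 WT libraries, though by a narrow margin (92.9 against 95.9 CPM).

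Birc3 (ENSMUSG00000032000, chr9:7848699-7873186) encodes cIAP2, a ubiquitin ligase recruited through TRAF2 that is also a known NF-kB target. Unlike those of Traf1, its libraries overlapped, at 355.3, 444.1 and 285.4 CPM in M_KO and at 399.7, 328.8 and 317.1 CPM in M_WT (log2 fold change 0.05, SE 0.19, edgeR adjusted p = 0.951). F_KO was at 357.1 CPM and F_WT at 297.0 CPM. Tnfaip2 (ENSMUSG00000021281, chr12:111442469-111455018), first found as a transcript induced by TNF in endothelial cells, was the most abundant of the 10. It was at 2229, 1831 and 1374 CPM in M_KO and at 2649, 1855 and 1705 CPM in M_WT (log2 fold change -0.20, SE 0.27, edgeR adjusted p = 0.835), and at 1375 CPM in F_KO and 1332 CPM in F_WT.

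Per length, M_KO macrophages held most Tnfaip2 (359.7 ± 88.8 FPKM), then Tnfrsf1b (196.0 ± 88.4 FPKM). Tnfrsf1a (79.2 ± 13.6 FPKM), Tnf (77.6 ± 9.77 FPKM) and Birc3 (71.4 ± 16.0 FPKM) followed, and these 3 overlapped from each to the next. In M_WT, Tnf (145.8 ± 25.4 FPKM) stood above both Tnfrsf1a (74.7 ± 2.41 FPKM) and Birc3 (69.5 ± 9.32 FPKM) without overlap, and Tnfrsf1b (381.4 ± 29.3 FPKM) overlapped with Tnfaip2 (414.8 ± 104.2 FPKM). Tnfsf9, Cd40 and Traf1 were between 9.39 and 17.1 FPKM in M_KO and between 16.9 and 29.1 FPKM in M_WT. Tnfsf12 and Tnfsf13b were the lowest in both groups (SD, n = 3 each, for all these values).

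The 10 genes differed in which M_KO library was extreme. M_KO_5645 had the lowest value of the 6 M libraries for Tnf, Tnfrsf1b, Traf1 and Cd40, and the highest for Tnfrsf1a, Birc3, Tnfsf12 and Tnfsf13b. The same library had the highest B cell marker sum (687.3 CPM) and the lowest sum of interferon-stimulated genes (188.8 CPM) of the M libraries, and their part in these values was not tested. M_KO_5642 was lowest for 5 of the 10 genes: Tnfsf9, Tnfrsf1a, Tnfsf13b, Birc3 and Tnfaip2. M_KO_5944 was neither highest nor lowest for any of the 10.

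The F pair has 1 library per genotype and gives values only. F_KO was lower than F_WT by over 1.5-fold for 5 of the 10 genes, against 14.1% of all genes tested, and higher by that much for none of them, against 11.4%. The ratios of F_KO to F_WT were 0.286 for Tnf (Clopper-Pearson 95% interval from the counts, 0.268 to 0.305), 0.421 for Tnfsf9 (0.345 to 0.510), 0.490 for Cd40 (0.441 to 0.543), 0.576 for Tnfrsf1b (0.561 to 0.591) and 0.650 for Traf1 (0.610 to 0.692). These intervals cover counting error only, not differences between animals, so they give no precision for an effect of genotype. Tnfrsf1a had a ratio of 1.32, Birc3 1.20, Tnfsf12 1.19, Tnfaip2 1.03 and Tnfsf13b 0.781. The sign was that of the M comparison for 8 of the 10 genes, the exceptions being Tnfsf13b and Tnfaip2, against 56.4% of all genes. Of these 8, Tnfrsf1a and Birc3 changed their M sign in 1 and 3 of 16 alternative fits. Some of the 8 also varied together over the 8 libraries (correlation 0.847 for Tnf with Traf1 and 0.895 for Tnfrsf1a with Birc3), so they are not separate agreements. The 2 comparisons share no library.

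**Figure D3:**
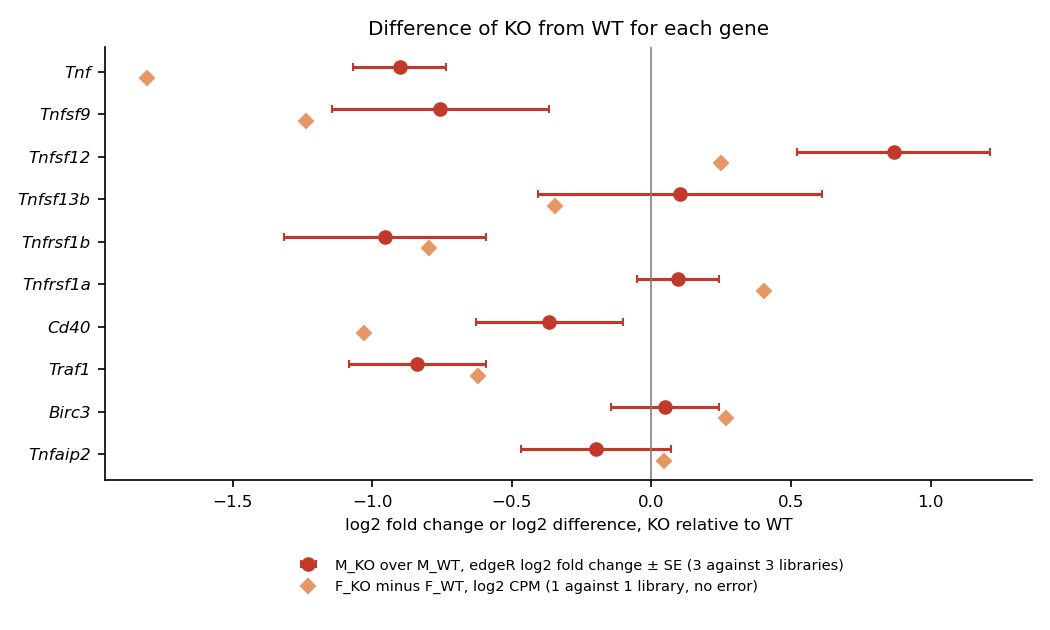
Circles give the edgeR log2 fold change of M_KO over M_WT with its standard error (3 against 3 libraries) and diamonds the difference in log2 CPM of F_KO minus F_WT (1 against 1, no error). Tnf, Tnfsf9, Tnfrsf1b, Cd40 and Traf1 lie left of 0 in both, and Tnfsf12, Tnfrsf1a and Birc3 right of 0 in both.

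The rest of the TNF pathway was read from 5 lists, of which 96 of 111 genes were tested. EdgeR called none of them (14 were lower and 3 higher at an unadjusted p under 0.05, against 4.42% and 5.47% of all genes). DESeq2 called 1 of the 101 it tested, Tnfaip8l2, a share near the 1.19% it called of all genes. The fitted log2 fold change was below 0 for 66 of the 96 genes and above 0 for 30 (median log2 fold change -0.14), against 48.5% lower and a median of 0.01 over all genes tested. In the F pair the median of the 96 was -0.01.

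Among the other ligands of the family, 7 of 14 were tested, 5 lower and 2 higher in M_KO (median log2 fold change -0.57), and none was called. Tnfsf15, encoding the ligand TL1A, was at 5.77, 0.87 and 2.75 CPM in M_KO, against 18.8, 12.7 and 6.28 CPM in M_WT (log2 fold change -2.02, SE 0.66, edgeR adjusted p = 0.450). Ltb, encoding lymphotoxin beta, lies on the same chromosome beside Tnf (chr17:35194439-35196320, plus strand). Its sign was opposite, at 3.73, 5.99 and 2.91 CPM in M_KO, against 1.62, 2.18 and 0.76 CPM in M_WT (log2 fold change 1.46, SE 0.45, edgeR adjusted p = 0.450), but was lower in F_KO (2.48 CPM) than in F_WT (3.39 CPM). Lymphotoxin beta is a product of B and T cells. B cell marker sums were highest in M_KO_5645 among M libraries, as was Ltb. Other libraries differed in order: M_WT_5643 had a higher sum (462.0 CPM) than M_KO_5944 (349.1 CPM) and M_KO_5642 (226.3 CPM), but less Ltb. F_KO had a higher sum (747.7 CPM) than F_WT (462.9 CPM), also with less Ltb. The part of B cells in the level of Ltb was not tested. Lta, on the other side of Tnf, had 46 counts in all and was not tested.

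Of 25 other receptors of the family 18 were tested, 10 lower and 8 higher, with a median log2 fold change of -0.03 and none called. Tnfrsf8, encoding CD30, was at 3.79, 1.74 and 4.27 CPM in M_KO, against 8.96, 10.5 and 5.67 CPM in M_WT (log2 fold change -1.36, SE 0.39, edgeR adjusted p = 0.435). It was the 1 gene of these 18 whose M libraries did not overlap, which is no more than the share over all genes (6.95% lower and 9.09% higher). The receptors and ligands that pair with the 10 genes were looked up for that reason, with their values in view. Tnfrsf9, the receptor of Tnfsf9, was at 2.55, 1.43 and 0.44 CPM in M_KO, against 7.78, 9.37 and 2.48 CPM in M_WT, but at 9.60 CPM in F_KO against 1.52 CPM in F_WT. Tnfrsf12a, the receptor of Tnfsf12, averaged 8.34 ± 1.98 CPM in M_KO and 8.81 ± 1.18 CPM in M_WT (SD, n = 3 each). Tnfrsf13b and Tnfrsf13c, which bind BAFF, averaged 16.2 ± 5.94 and 4.56 ± 1.20 CPM in M_KO, against 13.1 ± 2.72 and 4.95 ± 1.48 CPM in M_WT. Cd40lg, the ligand of Cd40, had 3 counts over the 8 libraries.

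Of the signalling proteins behind the receptors, all 33 were tested, 25 lower and 8 higher (median log2 fold change -0.12), and none was called. Ripk1, the kinase of the TNFR1 complex, averaged 103.7 ± 5.23 CPM in M_KO and 118.1 ± 10.8 CPM in M_WT. Tradd averaged 14.6 ± 1.36 CPM in M_KO and 14.3 ± 1.19 CPM in M_WT, and Traf2 48.0 ± 6.02 CPM in M_KO and 53.5 ± 6.57 CPM in M_WT (SD, n = 3 each). These 3 are named as partners of the 10 genes and not by the size of their change. Traf5, an adaptor close to Traf2, was at 13.5, 6.76 and 16.1 CPM in M_KO, against 20.2, 21.8 and 24.2 CPM in M_WT (log2 fold change -0.87, SE 0.31, edgeR adjusted p = 0.460). Rbck1 and Sharpin, both subunits of the linear ubiquitin chain assembly complex, lay above every M_WT library in each M_KO library. Their means were 67.9 ± 2.63 and 42.4 ± 1.91 CPM in M_KO, against 55.3 ± 2.66 and 34.9 ± 3.40 CPM in M_WT (edgeR adjusted p = 0.460 and 0.519). In the F pair Rbck1 was at 61.5 CPM in F_KO and 63.4 CPM in F_WT, and Sharpin at 39.9 CPM in F_KO and 35.3 CPM in F_WT. Tab3, a partner of the kinase TAK1, lay below every M_WT library in each M_KO library (log2 fold change -0.23, edgeR adjusted p = 0.567). M libraries did not overlap for 2 lower and 2 higher genes of the 33, no more than the share over all genes (6.95% lower and 9.09% higher).

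In the list of TNF-inducible and feedback genes, of 22 tested, 9 were lower and 2 higher in all M_KO libraries, against 6.95% and 9.09% of all genes. The median log2 fold change was -0.31, with 16 lower and 6 higher. Induction by TNF was not tested for any gene of this list, Tnfaip8l2 included. Tnfaip8l2, which encodes TIPE2, an inhibitor of inflammatory signalling, was at 28.2, 36.0 and 40.2 CPM in M_KO, against 19.4, 19.9 and 16.9 CPM in M_WT. Its log2 fold change was 0.89 (SE 0.17, edgeR adjusted p = 0.322, DESeq2 adjusted p = 0.00927), and the DESeq2 call was lost without M_WT_6258 (adjusted p = 0.109), M_WT_6255 (0.205) or M_KO_5645 (0.0946). F_KO was at 36.8 CPM and F_WT at 26.1 CPM. Ptgs2, encoding cyclooxygenase 2, was at 245.6, 312.5 and 50.02 CPM in M_KO, against 1108, 524.5 and 497.1 CPM in M_WT (log2 fold change -1.81, SE 0.66, edgeR adjusted p = 0.460), but higher in F_KO (312.4 CPM) than in F_WT (167.9 CPM). Vcam1, an adhesion molecule, had a log2 fold change of -1.27 (SE 0.39, edgeR adjusted p = 0.450). Bcl2a1b and Bcl2a1d, anti-apoptotic genes with near-identical copies whose reads can be split between them, had -0.97 and -0.92 (edgeR adjusted p = 0.450 and 0.460).

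Genes that control TNF shedding and Tnf mRNA were the last list (16 of 17 tested, 10 lower and 6 higher, median log2 fold change -0.17, none called). Adam17, the protease that sheds TNF and both receptors, overlapped between groups, at 337.2 ± 113.7 CPM in M_KO and 389.0 ± 80.5 CPM in M_WT (SD, n = 3 each; edgeR adjusted p = 0.822), and is named for that role. Rhbdf2, which encodes iRhom2, needed for Adam17 to mature in macrophages, was at 260.9, 179.2 and 252.9 CPM in M_KO, against 315.4, 308.4 and 305.3 CPM in M_WT (log2 fold change -0.43, SE 0.16, edgeR adjusted p = 0.464), and without M_KO_5645 it was -0.28. F_KO was at 211.5 CPM and F_WT at 276.2 CPM. The RNA-binding protein genes Khsrp and Elavl1 had log2 fold changes of -0.30 and -0.21 (edgeR adjusted p = 0.523 and 0.538) with M libraries that did not overlap, but were not lower in F_KO. The log2 fold change of Khsrp was -0.19 without M_KO_5645. Rhbdf2, Khsrp and Elavl1 were the 3 of the 16 tested genes whose M libraries did not overlap, all lower in M_KO, against 6.95% of all genes.

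**Figure D4:**
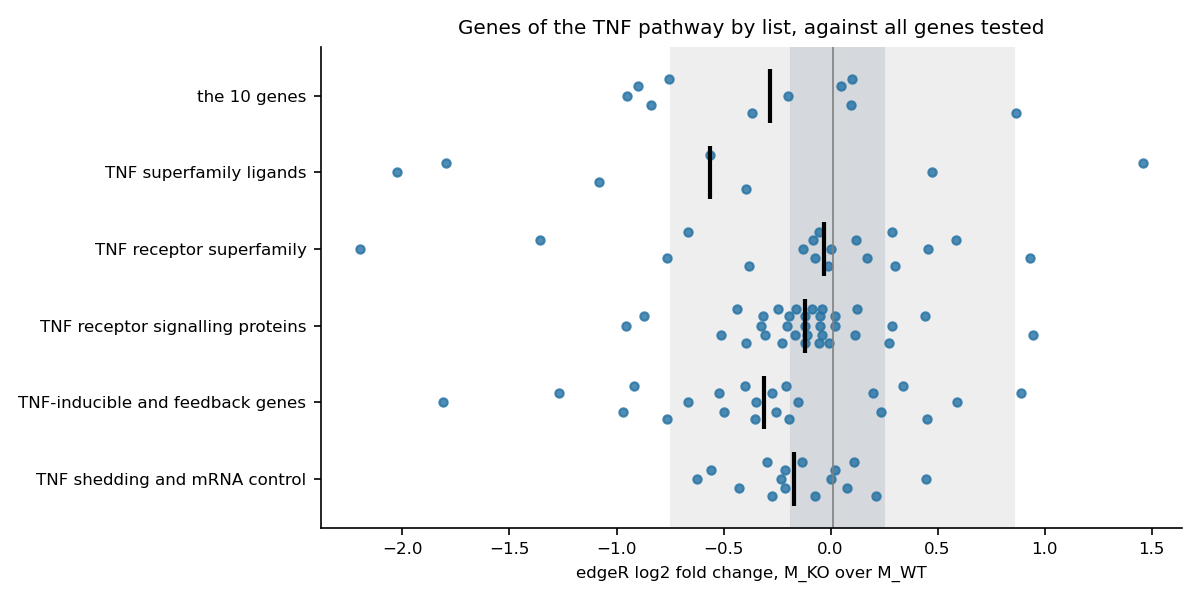
Each point is the edgeR log2 fold change of 1 tested gene in M_KO over M_WT, by list, with the list's median as a bar. Dark and light shading hold the middle 50% and 90% of all 13646 genes, and the thin line is their median of 0.01. Medians of the lists lie between -0.57 and -0.03.

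The genes most like Tnf over the 8 libraries, among 8261 abundant protein-coding genes, included Crlf3, Extl2, Scyl2 and Ezr, with correlations of log2 CPM between 0.950 and 0.965. This ranking is a description, since all 8 libraries are shared and the highest of many values is taken. Ezr, encoding the membrane linker ezrin, had the widest range of these 4: 149.3, 113.2 and 125.5 CPM in M_KO, 217.2, 247.3 and 195.1 CPM in M_WT, 89.0 CPM in F_KO and 173.8 CPM in F_WT.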

How the data were processed

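RNA of peritoneal macrophages was sequenced in 8 libraries. The kit was NEBNext Ultra RNA, per the labels' protocols. HISAT2 2.0.5, featureCounts 1.5.0-p3, DESeq2 1.16.1 and the builds GRCm38 and mm10 are named in the submitters' processing notes, while the sources used here do not give the strand setting or annotation release. Counts were deposited as whole reads per gene, not normalized by the authors. The deposited FPKM table was scaled to gene length and library size by the authors. The authors' deposited comparison gives log2 fold changes and p-values of M_KO against M_WT, and its per-library columns were not used. No value column was without a sample (0 columns).

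Counts were tested with edgeR 4.0.16 (quasi-likelihood test, legacy=FALSE, TMM, filterByExpr on genotype) in R 4.3.3 over the 6 M libraries, which left 13646 genes and 4 residual degrees of freedom, with Benjamini-Hochberg adjustment at 0.05. DESeq2 1.42.0 and limma 3.58.1 were alternatives. Standard errors come from the F statistic. CPM use TMM over 8 libraries, with a prior count of 2 for log2 values. The tests were tried on simulated data. A count of 0 allows 3 counts, or 0.120 to 0.170 CPM. Intervals and floors cover only counting error, as PCR copies cannot be told from separate molecules.

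The 10 genes and the lists were chosen with earlier results of these data known. Named were the 10 genes, each pathway gene called by edgeR or DESeq2, up to 4 others per list with a mean log2 CPM of at least 1 and M libraries that did not overlap (largest change first), and the 5 genes with a mean log2 CPM of at least 3 most correlated with Tnf, of which 1 is not reported here. Promoters come from RefSeq tables of GRCm38.p6.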

Additional observations from a re-analysis of the deposited data

How the results depend on the processing

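Of 160 recomputed log2 fold changes of the 10 genes, 150 kept sign and call, 1 gained a call (Tnf by DESeq2) and 9 changed sign, all of them for genes whose log2 fold change lay between -0.20 and 0.10. Tnfsf13b changed sign with limma voom (-0.19), with all 8 libraries and the letter as a covariate (-0.0062) and with a covariate for animal numbers beginning with 56 (-0.016), and Birc3 with that last covariate (-0.0012). With 1 library left out, Tnfsf13b lay between -0.62 (without M_KO_5645) and 0.49, Birc3 between -0.13 (without M_KO_5645) and 0.19, with -0.02 without M_WT_6255, Tnfrsf1a between -0.038 (without M_KO_5645) and 0.21, and Tnfaip2 between -0.37 and 0.027 (without M_WT_5643). The cause was not tested.

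EdgeR called 3 genes in all, DESeq2 187 and the fit over 8 libraries 1. When 1 library was left out, edgeR called between 0 (without M_WT_6255) and 17 genes (without M_WT_5643). Of the 10 genes, DESeq2 called 1 in place of 0, and of the pathway genes also 1 in place of 0. DESeq2 fits with 1 library left out were chosen after seeing the data, with log2 fold changes of -1.05 to -0.82 for Tnf and 0.77 to 1.01 for Tnfaip8l2. In the F pair, 5 of the 10 genes were past 1.5-fold, and 4 on log2(FPKM + 1). No paired analysis was possible because no animal number is shared between groups. Tnfsf13b and Tnfsf12 rest on the fewest reads.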
